A study of Mus musculus with 8 samples.

Results

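The proteins of the splicing machinery and the heterogeneous nuclear ribonucleoproteins (hnRNPs) were followed through the differentiation of mouse oligodendrocyte progenitor cells (OPCs) into oligodendrocytes, the cells that make myelin. The members were taken by gene symbol, as every transcript whose symbol begins with Hnrnp, Srsf, Sf3a, Sf3b, Snrp, Prpf or U2af, or with Rbm and a number. This gave 85 of the 10987 transcripts listed, 1 for each gene, with 8 SR proteins, 17 hnRNPs, 6 subunits of SF3, 2 transcripts of the U2AF family, 9 Sm and other snRNP proteins, 12 PRP factors and 31 numbered RBM proteins. The last group is held together by name alone and includes RNA-binding proteins that are not known for splicing. Srsf3, Hnrnpa1, Hnrnpc and U2af1 were not analysed here.

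The OPCs were derived from epiblast stem cells of mouse strain 129S/SvEv and were grown with bFGF and PDGFA, each at 20 ng/mL. The oligodendrocytes were differentiated from them with 40 ng/mL thyroid hormone (T3), 100 ng/mL noggin, 100 ng/mL IGF-1, 10 ng/mL NT3 and 10 uM cyclic AMP, and were collected after 3 days. Before this the cells were passaged in OPC medium lacking bFGF, and the differentiation medium listed neither bFGF nor PDGFA. The dishes for oligodendrocytes were also seeded more densely than those for OPCs. These differences go with cell type in every comparison. Each group had 2 cultures, and from each culture lysate, pooled from several dishes, both ribosome footprints and fragmented total RNA were sequenced, which gives 8 libraries. The dishes of oligodendrocytes still held some undifferentiated cells, so a value for oligodendrocytes is a value for such a mixed culture.

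Pre-mRNA splicing removes introns in a series of complexes built on the transcript. The U1 and U2 snRNPs, each a small nuclear RNA with a ring of Sm proteins and particle-specific proteins, mark the ends of the intron, with U2AF on the polypyrimidine tract and SF3 at the branch site, and the tri-snRNP with its PRP factors then joins to form the active spliceosome. SR proteins mostly bind exons and promote their use, whereas hnRNPs coat nascent transcripts and often repress or shift the choice of splice sites. In the oligodendrocyte lineage hnRNP A2 is known to bind Mbp mRNA during its transport.

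All values are FPKM, read fragments divided by feature length and by library size, as the authors deposited them. RNA-seq FPKM refer to the whole transcript and footprint FPKM to the coding sequence (CDS). Because FPKM are relative, a transcript's value also depends on all others in its library, and in such bulk cultures fewer cells of a type and less RNA per cell cannot be told apart. The estimated depth was 241 and 166 megabases aligned for RNA-seq of the OPC cultures, 120.3 and 77.9 for RNA-seq of the oligodendrocyte cultures, 249 and 207 for footprints of the OPC cultures and 214 and 93.0 for footprints of the oligodendrocyte cultures. These are the smallest depths that scored near the best. The best-scoring depths were higher, at 483 and 665 for RNA-seq of OPCs and 240.6 and 468 for RNA-seq of oligodendrocytes. For footprints they were 498 and 414 in OPCs and 428 and 372 in oligodendrocytes. The estimates can thus be off by more than a factor of 2, and by unlike factors between libraries.

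The labels were checked against marker genes. All 6 oligodendrocyte markers used here were higher in oligodendrocytes in both kinds of library, and their summed RNA-seq FPKM went from 33.6 and 35.5 in the OPC cultures to 2177 and 1835. Cnp, which encodes an enzyme of non-compact myelin, stood at 27.1 and 28 FPKM in OPCs and at 1325 and 1118 in oligodendrocytes. OPC markers were not lower in oligodendrocytes. Of the 4 listed, 3 (Gpr17, Pdgfra and Sox6) were called higher in RNA-seq and 2 (Gpr17 and Pdgfra) in footprints. The summed RNA-seq FPKM of the 4 listed was 292 and 294 in OPCs and 562 and 652 in oligodendrocytes, and 283 and 289 against 342 and 380.3 without Gpr17, a gene of committed progenitors that went from 8.38 and 4.91 to 221 and 271. Ptprz1 was at 209.7 and 238 against 203 and 248, and Pdgfra, the receptor that defines OPCs, was at 53.5 and 31.3 and at 105 and 101. All 4 proliferation markers listed were lower in both kinds of library, with a summed RNA-seq level of 346 and 478 FPKM in OPCs and 116 and 135 in oligodendrocytes. Astrocyte markers summed to 223 and 170.5 FPKM against 302 and 226, with Gfap at 0.155 and 0 against 14.2 and 2.11, and 2 of 4 passed the test in RNA-seq, all higher. Neuron markers summed to 124 and 111 against 161 and 172, and 1 of 5, Tubb3, passed, also higher. The microglial marker Csf1r was at or near 0 throughout. The part of these cell types and of proliferation in the results for splicing proteins was not tested.

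In RNA-seq, most splicing and hnRNP transcripts were lower in oligodendrocytes than in OPCs. Of the 82 members with a mean of at least 1 FPKM, both oligodendrocyte values lay below both OPC values for 63 (76.8%), against 44.2% of all 8346 transcripts tested. For 3 members both values lay above, and for 16 the groups overlapped. The median member had an oligodendrocyte level of 66.7% of its OPC level. The median log2 fold change of the members was -0.60 against -0.23 for all transcripts tested. It was -0.49 against -0.14 in the cultures numbered 1 and -0.58 against -0.27 in those numbered 2.

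The test called 32 of the 82 members lower (39.0%) and 1 higher at an adjusted p under 0.05 (limma), against 20.2% lower and 13% higher among all transcripts tested. Members were also more abundant, with a median of 31.4 and 30.4 FPKM in the OPC cultures against 7.41 and 6.88 for all listed transcripts. The fit ties variance to abundance. Shares here and below thus compare transcripts at unlike levels, and the part of abundance was not tested. The members that passed were spread unevenly over the families, with 10 of 17 hnRNPs, 5 of 9 Sm and snRNP proteins, 4 of 8 SR proteins, 2 of 6 SF3 subunits, both U2AF family transcripts (U2af1l4 by values listed at 0), 3 of 12 PRP factors and 6 of 28 RBM proteins lower. The member that rose was Snrpn. Without OPC culture 1, OPC culture 2, oligodendrocyte culture 1 or oligodendrocyte culture 2 the number called was 3, 1, 13 and 7, and the share called lower was 3.66%, 1.22%, 13.4% and 8.54% against 1.52%, 1.34%, 18.5% and 10.0% of all transcripts, so that it was above the background only without OPC culture 1. With a variance that does not follow abundance 11 were lower (13.4% against 14.3%), and with median-ratio scaling 17 (20.7% against 15.2%, where 16.1% of all were higher), so the excess of called members over the background depends on the fit, whereas the median of the members stayed below that of all transcripts by 0.33 to 0.42 under all 10 alternatives.

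Footprints of most members were lower in oligodendrocytes as well. Both oligodendrocyte values lay below both OPC values for 55 of 81 members tested (67.9%, against 37.9% of all 8342 transcripts), above for 9, and the groups overlapped for 17. The median log2 fold change was -0.60 against -0.16 for all transcripts tested. It was -0.43 against 0.08 in the cultures numbered 1 and -0.71 against -0.28 in those numbered 2. The test called 30 members lower (37.0%, against 10.8% of all) and 1 higher, again Snrpn, where 12.8% of all transcripts were called higher. Footprint levels were unlike as well, with a median member at 83.3 and 82.7 FPKM in the OPC cultures against 9.95 and 9.81 for all listed transcripts. Lower were 11 of 17 hnRNPs, 6 of 9 Sm and snRNP proteins, 4 of 8 SR proteins, 4 of 6 SF3 subunits, U2af2, 3 of 28 RBM proteins and 1 of 12 PRP factors. Without OPC culture 1 or OPC culture 2 no member was called (0% of all transcripts were called lower in either case), without oligodendrocyte culture 1 it was 28 (34.6%, against 25.5% of all called lower) and without oligodendrocyte culture 2 it was 2 (2.47% against 4.85%). With a variance that does not follow abundance only Snrpf was called (1.23% against 4.38%). In the last 2 settings the members' share was below that of all transcripts, whereas the median of the members stayed below that of all transcripts by 0.34 to 0.57 under all 10 alternatives.

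As a share of all listed FPKM, the members together made up 1.59% and 1.78% of RNA-seq in the OPC cultures and 1.18% and 1.27% in the oligodendrocyte cultures. Their share of footprints was larger, at 2.09% and 2.24% in OPCs and 1.53% and 1.62% in oligodendrocytes. In both kinds of library the groups did not overlap.

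**Figure D1:**
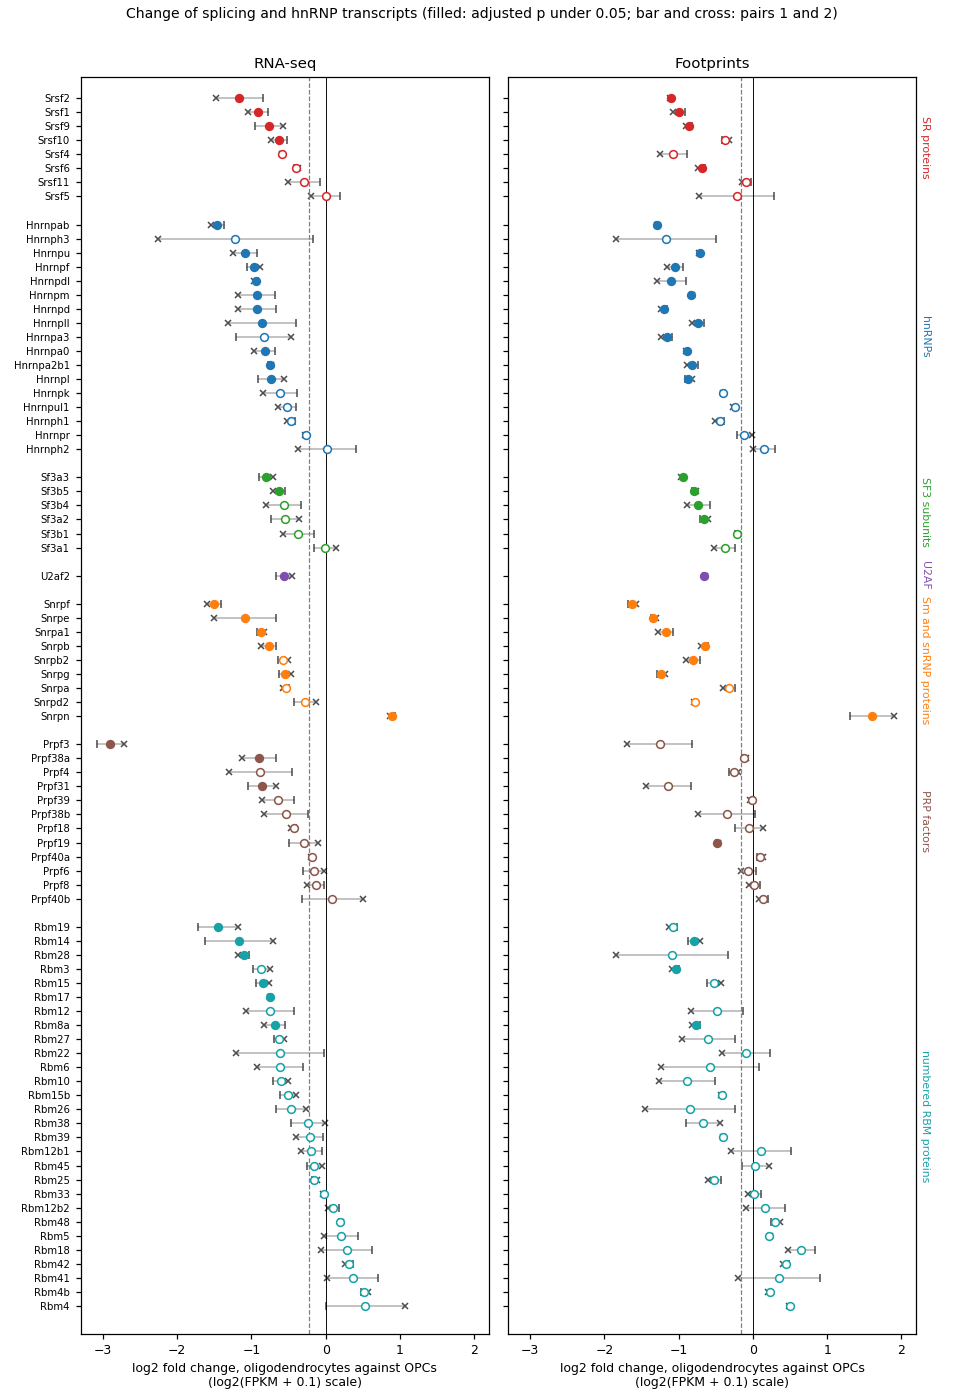
Log2 fold change of each member, oligodendrocytes against OPCs, by family, for RNA-seq and for footprints. Filled points passed an adjusted p of 0.05, the bar and the cross mark the cultures numbered 1 and 2, and the dashed line is the median of all transcripts tested (-0.23 for RNA-seq and -0.16 for footprints). Most members lie to the left of the dashed line, and Snrpn is the filled point on the right. U2af1l4 and the footprints of Rbm17 are not drawn.

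Among the SR proteins, whose C-terminal tail of arginine and serine repeats is phosphorylated and binds other splicing proteins, Srsf1 and Srsf2 had the highest footprint levels, and both fell. Srsf1, which recognises purine-rich exonic enhancers, was at 137 and 165 FPKM of RNA-seq in the OPC cultures and at 80.1 and 79.4 in the oligodendrocyte cultures (log2 fold change -0.91, SE 0.16, adjusted p = 0.00988). In footprints it was at 803 and 792 against 425 and 376 FPKM (log2 fold change -0.997, SE 0.12, adjusted p = 0.0124). Srsf2, known as SC35 and a marker of nuclear speckles, was at 165 and 191 FPKM of RNA-seq in OPCs and at 91.5 and 68.7 in oligodendrocytes (log2 fold change -1.16, SE 0.19, adjusted p = 0.00869). Footprints stood at 761 and 647 against 355 and 298 (log2 fold change -1.11, SE 0.15, adjusted p = 0.0173). For both genes every oligodendrocyte value was below every OPC value, in both kinds of library.

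Of the other SR proteins, Srsf9 fell in both kinds of library, with log2 fold changes of -0.77 (SE 0.16, adjusted p = 0.0186) in RNA-seq and -0.86 (SE 0.17, adjusted p = 0.035) in footprints. Srsf10 fell in RNA-seq with a log2 fold change of -0.63 (SE 0.17, adjusted p = 0.0376), and Srsf6 fell in footprints with -0.69 (SE 0.14, adjusted p = 0.0386). Srsf4 had 32.6 and 25.7 FPKM of RNA-seq in OPCs and 21.5 and 17.1 in oligodendrocytes, with an adjusted p of 0.092, or 0.0493 with the cultures as pairs. Its footprints were at 66.3 and 53.9 against 35.7 and 22.5 (log2 fold change -1.07, SE 0.29, adjusted p = 0.071, or 0.042 with the cultures as pairs). Srsf5 stood at 103 and 152 against 118 and 133 FPKM of RNA-seq and at 199 and 330.3 against 242 and 200.4 of footprints, and the groups overlapped in both. Over all 8 SR proteins the median stood at -0.61 for RNA-seq and -0.78 for footprints.

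The repeats that define the family are shown for the pair of SR proteins with the highest footprint levels, as 120 bases of CDS with the serine codons in capitals (GRCm38, Gencode vM21). The stretch of Srsf1 lies in exon 4 of 4 at chr11:88049436-88049555 on the plus strand and covers codons 193 to 232, and that of Srsf2 lies in exon 2 of 3 at chr11:116852199-116852318 on the minus strand and covers codons 126 to 165.
Srsf1: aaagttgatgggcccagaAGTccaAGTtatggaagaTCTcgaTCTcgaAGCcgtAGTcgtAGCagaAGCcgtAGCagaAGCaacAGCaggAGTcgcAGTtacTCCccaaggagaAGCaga
Srsf2: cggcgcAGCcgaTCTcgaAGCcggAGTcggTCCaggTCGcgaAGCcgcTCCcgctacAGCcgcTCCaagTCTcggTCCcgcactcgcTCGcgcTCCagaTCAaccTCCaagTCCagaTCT
In these 40 codons Srsf1 has 14 for arginine and 15 for serine, with 22 arginine-serine or serine-arginine dipeptides, and Srsf2 has 17 and 18, with 28 such dipeptides. Over the whole CDS the SR proteins held between 4.05 and 23.5 such dipeptides per 100 codons, with a median of 16.9, where the median of all listed transcripts was 0.771.

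The hnRNPs held the largest number of calls. Hnrnpab, a CArG-box binding hnRNP of the A/B group, was the most abundant member in RNA-seq of OPCs and fell furthest among the abundant hnRNPs, from 346 and 353 FPKM in OPCs to 133 and 121 in oligodendrocytes (log2 fold change -1.46, SE 0.14, adjusted p = 0.00204), which is 36.4% of its OPC level. Its footprints went from 1303 and 1125 to 528 and 459.9 FPKM (log2 fold change -1.30, SE 0.14, adjusted p = 0.0112). Hnrnpa2b1, which encodes the hnRNP A2 that binds Mbp mRNA, was at 229 and 254 FPKM of RNA-seq in OPCs and at 133 and 153 in oligodendrocytes (log2 fold change -0.76, SE 0.16, adjusted p = 0.0168). Its footprints were the highest of all members in every culture but 1, at 1279.9 and 1495 in OPCs and 767 and 805 in oligodendrocytes (log2 fold change -0.82, SE 0.13, adjusted p = 0.0237). The groups did not overlap for either gene.

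The related A-type hnRNPs followed. Hnrnpa0 had 170.3 and 193 FPKM of RNA-seq in OPCs and 106 and 99.3 in oligodendrocytes (log2 fold change -0.82, SE 0.15, adjusted p = 0.0116), and its footprints were at 734 and 612 against 401 and 326 (log2 fold change -0.89, SE 0.17, adjusted p = 0.033). Hnrnpa3 fell in footprints from 235 and 214 to 110.0 and 91.1 FPKM (log2 fold change -1.16, SE 0.15, adjusted p = 0.0141). Its RNA-seq was at 81.2 and 49.9 against 35 and 36.2, with the groups apart but an adjusted p of 0.0517, or 0.019 with the cultures as pairs. For Hnrnpa3, 97.7% of the 30-base words of its CDS also occur elsewhere in the genome, so its values may include reads of such copies.

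Hnrnpd, or AUF1, binds AU-rich elements and takes part in mRNA decay. It fell from 23.3 and 28.8 to 14.6 and 12.6 FPKM in RNA-seq (log2 fold change -0.93, SE 0.21, adjusted p = 0.0229) and from 454 and 419.9 to 204 and 177 in footprints (log2 fold change -1.20, SE 0.13, adjusted p = 0.0101). Hnrnpl, which binds CA repeats, was at 321 and 271 FPKM of RNA-seq in OPCs and 169.7 and 184 in oligodendrocytes (log2 fold change -0.74, SE 0.16, adjusted p = 0.0191), with footprints at 807 and 759 against 427 and 429 (log2 fold change -0.87, SE 0.10, adjusted p = 0.0128). Hnrnpu, a large nuclear protein that also binds scaffold DNA, was at 107 and 150.3 against 56.4 and 63.2 in RNA-seq (log2 fold change -1.09, SE 0.21, adjusted p = 0.013) and at 586 and 595 against 359 and 359 in footprints (log2 fold change -0.72, SE 0.10, adjusted p = 0.0162). For all 3 each oligodendrocyte value was below each OPC value of the same kind. Hnrnpdl, Hnrnpll and Hnrnpm also fell in both kinds of library, and the median of the 17 hnRNPs was -0.84 in RNA-seq and in footprints. The transcript listed for Hnrnpdl is annotated in Gencode vM21 as one for nonsense-mediated decay, so its values may not describe the coding form.

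Hnrnpk, a poly(C)-binding hnRNP, was among the most abundant members in both kinds of library. It had 213 and 286 FPKM of RNA-seq in OPCs and 163 and 159 in oligodendrocytes (log2 fold change -0.62, SE 0.19, adjusted p = 0.0508), or an adjusted p of 0.0191 with the cultures as pairs. In footprints it was at 928 and 1042 against 699 and 785 (log2 fold change -0.41, SE 0.13, adjusted p = 0.102, or 0.0297 with the cultures as pairs). The groups were apart in both, but the call rests on the pairing.

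The hnRNPs F and H, which bind runs of G, did not all pass the test. Hnrnpf fell from 149 and 131 to 71.7 and 71.3 FPKM in RNA-seq (log2 fold change -0.97, SE 0.15, adjusted p = 0.00686) and from 362 and 378 to 188 and 170.0 in footprints (log2 fold change -1.05, SE 0.11, adjusted p = 0.0104). Hnrnph1 had 147 and 176 FPKM of RNA-seq in OPCs and 111 and 123 in oligodendrocytes (log2 fold change -0.46, SE 0.16, adjusted p = 0.0772, or 0.036 with the cultures as pairs). Footprints stood at 497 and 544 against 381 and 381 (log2 fold change -0.45, SE 0.11, adjusted p = 0.0529, or 0.0391 with the cultures as pairs). Hnrnph2, an X-linked paralog of Hnrnph1 that was chosen after its values were seen, had 31.8 and 41 FPKM of RNA-seq in OPCs and 42.1 and 31.6 in oligodendrocytes, with a log2 fold change of 0.02. Its footprints were at 115 and 127 against 142 and 127 (log2 fold change 0.15, SE 0.13, adjusted p = 0.425). Hnrnph3, likewise chosen after its values were seen, had 10.0 and 10.3 FPKM of RNA-seq in OPCs and 8.85 and 2.06 in oligodendrocytes (log2 fold change -1.22, SE 0.66, adjusted p = 0.200). Its footprints were at 40.7 and 43.0 against 28.8 and 11.9 (log2 fold change -1.17, SE 0.48, adjusted p = 0.161). The groups were apart for Hnrnpf, Hnrnph1 and Hnrnph3 and overlapped for Hnrnph2 in RNA-seq. The differences between these paralogs were not tested.

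How far such paralogs can be told apart by reads depends on their sequence, shown here as the same 120 bases of CDS (bases 100 to 219) of Hnrnph1, exon 3 of 14 at chr11:50379470-50379589 on the plus strand, and of Hnrnph2, exon 4 of 4 at chrX:134605007-134605126 on the plus strand. Capitals mark the 17 bases at which they differ.
Hnrnph1: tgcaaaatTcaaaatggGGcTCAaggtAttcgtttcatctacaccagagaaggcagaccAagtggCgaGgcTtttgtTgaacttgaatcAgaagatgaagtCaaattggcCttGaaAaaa
Hnrnph2: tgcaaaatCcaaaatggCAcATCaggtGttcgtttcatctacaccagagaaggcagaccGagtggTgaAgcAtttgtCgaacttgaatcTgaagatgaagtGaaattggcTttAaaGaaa
Over 1347 aligned bases the CDS of this pair were 85.9% identical, with a longest identical run of 34 bases, and only 7 of 1318 words of 30 bases were shared, so few footprints could belong to both. Over the rest of the genome, however, 72.2% of the CDS words of Hnrnph2 occur again, which limits its footprint value. Hnrnph1 and Hnrnpf were 77.6% identical and shared 0 such words.

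**Figure D2:**
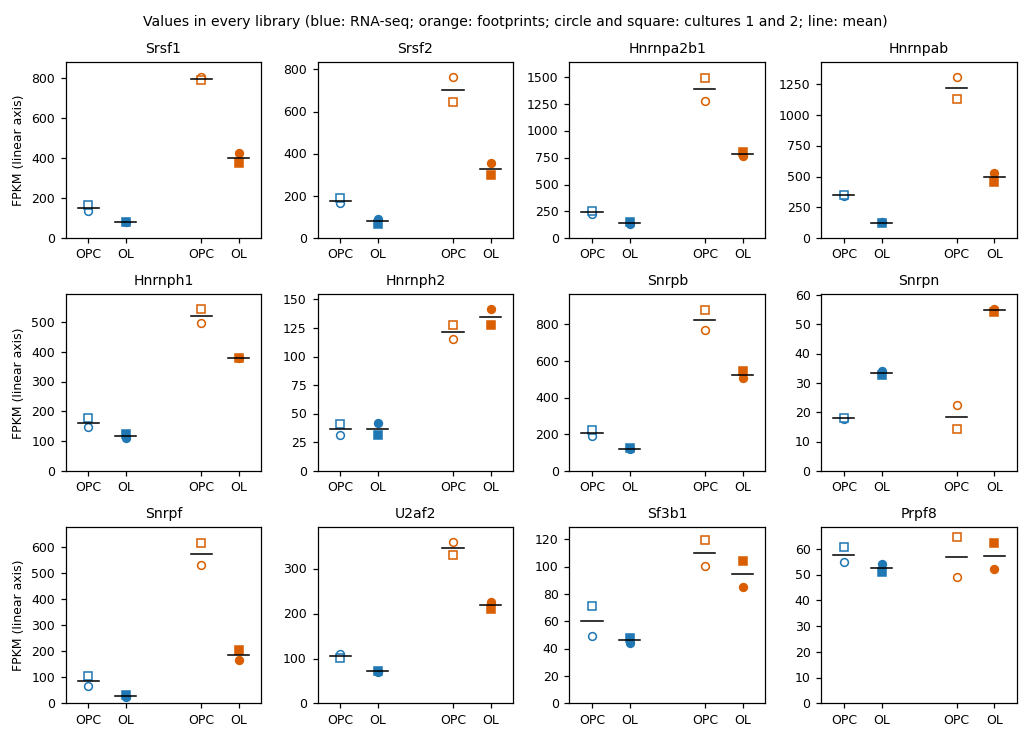
FPKM of 12 members in each library, RNA-seq in blue and footprints in orange, OPCs as open and oligodendrocytes as filled symbols, with a circle for culture 1, a square for culture 2 and a line at the mean. Axes are linear and start at 0. Srsf1, Srsf2, Hnrnpa2b1, Hnrnpab, Snrpb, Snrpf and U2af2 are lower in oligodendrocytes in both kinds of library, Snrpn is higher, Hnrnph2 overlaps in RNA-seq and Prpf8 in footprints.

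At the 3' end of the intron, U2af2, the large U2AF subunit that binds the polypyrimidine tract, fell in both kinds of library. It had 111 and 100.4 FPKM of RNA-seq in OPCs and 69.2 and 73.3 in oligodendrocytes (log2 fold change -0.56, SE 0.15, adjusted p = 0.0344), and footprints of 359.9 and 331 against 226 and 211 (log2 fold change -0.66, SE 0.11, adjusted p = 0.0249). U2af1l4, a relative of the small U2AF subunit, was at 38.5 and 37.4 FPKM of RNA-seq in OPCs and is listed at 0 in both oligodendrocyte cultures (adjusted p = 0.000442, limma). An exact 0 in FPKM can be a failed estimate, so no fold is given and this call is uncertain. Its footprints were 3.41 FPKM in OPC culture 1 and listed at 0 in the other 3, so they were not tested. It lies at chr7:30563321-30565365 on the plus strand, and 861 bases of its exons overlap Gm49396 on the same strand, so that the reads of either gene cannot be told apart there.

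Sf3b1, the SF3 subunit that contacts the branch site, did not pass the test. It had 49.3 and 71.4 FPKM of RNA-seq in OPCs and 44.2 and 47.8 in oligodendrocytes (log2 fold change -0.37, SE 0.22, adjusted p = 0.239), with footprints at 100.3 and 119 against 84.9 and 104 (log2 fold change -0.22, SE 0.17, adjusted p = 0.398). Sf3a3 fell in both, with log2 fold changes of -0.81 (SE 0.16, adjusted p = 0.0143) in RNA-seq and -0.95 (SE 0.12, adjusted p = 0.0133) in footprints. Sf3b5, a small subunit, fell as well, by -0.63 (SE 0.18, adjusted p = 0.0464) and -0.79 (SE 0.17, adjusted p = 0.0436). Sf3a2 and Sf3b4 passed the test in footprints and not in RNA-seq, and this difference between the kinds of library was itself not called.

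The Sm and snRNP proteins included falls of more than 1 on the log2 scale as well as the member that rose. Snrpf, a subunit of the ring of 7 Sm proteins, fell from 66.6 and 104 to 25 and 34.1 FPKM in RNA-seq (log2 fold change -1.51, SE 0.27, adjusted p = 0.0113) and from 531 and 616 to 166 and 206 in footprints (log2 fold change -1.63, SE 0.16, adjusted p = 0.00943). Snrpe, its neighbour in the ring, was at 158 and 279 against 99 and 98.5 in RNA-seq (log2 fold change -1.09, SE 0.28, adjusted p = 0.0313) and at 592 and 685 against 229 and 276 in footprints (log2 fold change -1.34, SE 0.15, adjusted p = 0.0119). Snrpg was at 118 and 119 against 76 and 86.1 in RNA-seq (log2 fold change -0.55, SE 0.15, adjusted p = 0.0374) and at 718 and 551 against 292 and 243 in footprints (log2 fold change -1.24, SE 0.19, adjusted p = 0.0206). For these ring proteins every oligodendrocyte value was below every OPC value.

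Snrpd2, a further ring protein, had 74 and 83.4 FPKM of RNA-seq in OPCs and 54.9 and 76.2 in oligodendrocytes, and the groups overlapped (log2 fold change -0.28, SE 0.21, adjusted p = 0.329). In footprints it was at 702 and 567 against 414 and 326 (log2 fold change -0.78, SE 0.19, adjusted p = 0.0551, or 0.012 with the cultures as pairs). Snrpa1, a protein of the U2 snRNP, fell from 96.1 and 84.6 to 50.7 and 47.7 FPKM in RNA-seq (log2 fold change -0.87, SE 0.16, adjusted p = 0.0108) and from 229.7 and 219 to 109 and 90.5 in footprints (log2 fold change -1.17, SE 0.14, adjusted p = 0.0129). Snrpb2 fell in footprints, and in RNA-seq it passed only with the cultures as pairs (adjusted p = 0.0371). The median of the 9 was -0.58 in RNA-seq and -0.81 in footprints.

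Snrpb and Snrpn encode alternative forms of the same ring subunit, SmB and SmN, and moved in opposite directions. Snrpb, the general form, fell from 191 and 223 to 120.5 and 122 FPKM in RNA-seq (log2 fold change -0.77, SE 0.15, adjusted p = 0.015) and from 771 and 880.2 to 507 and 543 in footprints (log2 fold change -0.65, SE 0.13, adjusted p = 0.0338). Snrpn, an imprinted gene whose product SmN is found mainly in brain, rose from 17.7 and 18 to 34 and 32.9 FPKM in RNA-seq (log2 fold change 0.90, SE 0.17, adjusted p = 0.0132) and from 22.4 and 14.4 to 55.3 and 54.3 in footprints (log2 fold change 1.60, SE 0.27, adjusted p = 0.0253). The oligodendrocyte level of Snrpn was 187% of its OPC level in RNA-seq and 298% in footprints, with no overlap of the groups. Per length, Snrpb remained the more abundant of the pair in every library. Snrpn, at chr7:59982495-60005111 on the minus strand, overlaps Snurf and Gm38393 over 589 exon bases on the same strand, and reads there could belong to any of them.

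The paralogs are compared over 120 bases of their CDS (bases 4 to 123), with the 17 differing bases in capitals. That of Snrpb is in exon 2 of 7 at chr2:130177047-130177166 and that of Snrpn in exon 5 of 10 at chr7:59987444-59987563, both on the minus strand.
Snrpb: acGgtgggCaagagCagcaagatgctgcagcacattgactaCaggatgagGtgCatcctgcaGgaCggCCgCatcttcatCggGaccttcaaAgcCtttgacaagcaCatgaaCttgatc
Snrpn: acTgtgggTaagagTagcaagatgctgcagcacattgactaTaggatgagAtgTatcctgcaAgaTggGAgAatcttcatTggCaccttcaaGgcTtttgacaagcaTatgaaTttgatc
Over 693 aligned bases the CDS were 80.5% identical, with a longest identical run of 32 bases, and 3 of 664 words of 30 bases were shared. Over the rest of the genome, 32.9% of the CDS words and 24.6% of the transcript words of Snrpn were found again, and 10.8% and 12.8% of those of Snrpb.

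The PRP factors of the tri-snRNP and of the activation complex had few calls. Prpf8, the protein at the core of the spliceosome, had 54.8 and 60.7 FPKM of RNA-seq in OPCs and 54 and 51.1 in oligodendrocytes, and 49 and 64.4 against 52.2 and 62.3 of footprints. Its footprint groups overlapped. Prpf19, a ubiquitin ligase of the activation complex, fell in footprints from 369 and 376 to 261 and 271 FPKM (log2 fold change -0.49, SE 0.10, adjusted p = 0.0379), with RNA-seq at 144 and 144 against 103 and 134 (log2 fold change -0.30, SE 0.18, adjusted p = 0.246). Over the 12 the median was -0.48 for RNA-seq and -0.09 for footprints, the latter close to the -0.16 of all transcripts.

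The 3 PRP factors called in RNA-seq were Prpf3 and Prpf31, proteins of the U4/U6 particle, and Prpf38a. Prpf3 fell from 5.8 and 7.89 to 0.598 and 1.11 FPKM (log2 fold change -2.90, SE 0.49, adjusted p = 0.00905). At the smallest depths this rests on an estimated 7.03 and 8.47 reads in the oligodendrocyte cultures against 137 and 128 in OPCs. These read numbers are as uncertain as the depths. Footprints stood at 16.9 and 20.6 against 9.54 and 6.3 (log2 fold change -1.26, SE 0.36, adjusted p = 0.0784). Prpf31 fell in RNA-seq by -0.85 (SE 0.20, adjusted p = 0.0244), and in footprints it had -1.14 (SE 0.28, adjusted p = 0.0585), or an adjusted p of 0.0441 with the cultures as pairs. Prpf4, also a U4/U6 protein, did not pass and was at 13.9 and 13.5 against 10.1 and 5.44 FPKM of RNA-seq (log2 fold change -0.88, SE 0.34, adjusted p = 0.0991) and at 44.4 and 42 against 35.4 and 36.7 of footprints (log2 fold change -0.26, SE 0.15, adjusted p = 0.276).

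Prpf38a, which is needed for spliceosome activation, fell in RNA-seq from 33.7 and 45.5 to 21.2 and 20.7 FPKM (log2 fold change -0.90, SE 0.21, adjusted p = 0.0233). Its footprints were at 67.2 and 82.7 in OPCs and 60.7 and 77.3 in oligodendrocytes, and these overlapped. Prpf39, a U1 snRNP-associated factor, had 20.9 and 31.6 FPKM of RNA-seq in OPCs and 15.5 and 17.4 in oligodendrocytes (log2 fold change -0.64, SE 0.26, adjusted p = 0.105), with footprints at 11.3 and 13.3 against 11.3 and 13, which overlapped as well.

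Of the numbered RBM proteins 6 fell in RNA-seq and 3 in footprints, or 21.4% and 10.7% of those tested, which is close to the background shares of 20.2% and 10.8%. Rbm8a, the Y14 protein of the exon junction complex, fell in both, from 35.4 and 36 to 24.1 and 20.3 FPKM in RNA-seq (log2 fold change -0.69, SE 0.18, adjusted p = 0.034) and from 320.2 and 302 to 195 and 171 in footprints (log2 fold change -0.76, SE 0.12, adjusted p = 0.022). Rbm14, a protein of paraspeckles, fell from 22.2 and 19 to 7.08 and 11.5 in RNA-seq (log2 fold change -1.17, SE 0.29, adjusted p = 0.0299) and from 98.8 and 100.3 to 53.9 and 61.4 in footprints (log2 fold change -0.79, SE 0.13, adjusted p = 0.0248). Rbm3, an RNA-binding protein induced by cold, fell in footprints from 301 and 384 to 151 and 181 (log2 fold change -1.04, SE 0.18, adjusted p = 0.0266). Its RNA-seq was at 28.1 and 38.7 against 14.2 and 22.9 (log2 fold change -0.87, SE 0.30, adjusted p = 0.0709, or 0.0123 with the cultures as pairs).

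Rbm19 and Rbm28, nucleolar proteins that act in ribosome biogenesis rather than in splicing of mRNA, fell in RNA-seq. Rbm19 went from 14.2 and 11.8 to 4.27 and 5.15 FPKM (log2 fold change -1.45, SE 0.27, adjusted p = 0.0125), with footprints at 20.8 and 18.9 against 10.2 and 8.53 (log2 fold change -1.08, SE 0.27, adjusted p = 0.0618). Rbm28 went from 11 and 13.5 to 5.37 and 5.93 FPKM (log2 fold change -1.10, SE 0.26, adjusted p = 0.0244), with footprints at 26.7 and 33.7 against 21.1 and 9.29 (log2 fold change -1.09, SE 0.47, adjusted p = 0.18). Rbm15 fell in RNA-seq as well. Rbm38 had 21.8 and 17.9 FPKM of RNA-seq in OPCs and 15.8 and 17.8 in oligodendrocytes (log2 fold change -0.24, SE 0.21, adjusted p = 0.417), and footprints of 83.5 and 76.6 against 44.6 and 56.3 (log2 fold change -0.67, SE 0.17, adjusted p = 0.0644).

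Rbm17, a splicing factor also known as SPF45, fell in RNA-seq from 37.9 and 42.6 to 22.2 and 25.3 FPKM (log2 fold change -0.76, SE 0.18, adjusted p = 0.0246). In footprints it was at 52.2 and 44.1 in OPCs and 33.2 in oligodendrocyte culture 1, and it is listed at 0 in oligodendrocyte culture 2, which may be a failed estimate, so no footprint fold is given. Rbm43, Rbm47 and Rbm31y were below the minimum in RNA-seq. Rbm43 was at 0.423 and 0.772 FPKM in OPCs and 0.23 and 0 in oligodendrocytes. Rbm47 was at 0.0728 and 0.0691 and 0.11 and 0, and Rbm31y was at 0.0254 in OPC culture 1 and listed at 0 in the other RNA-seq libraries. Footprints of Rbm43 were at 0.692 and 1.42 against 0.401 and 0, and those of Rbm47 and Rbm31y are listed at 0 in each library.

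RNA-seq and footprints were compared member by member. Of the 39 members that fell in either, 23 fell in both, 9 were called only in RNA-seq and 7 only in footprints, and 0 had calls in opposite directions. Those called in both made up 59.0% of the members that fell in either, against 38.5% of all transcripts that did. Those called in both were 10 hnRNPs, 5 Sm and snRNP proteins, Srsf1, Srsf2, Srsf9, Sf3a3, Sf3b5, U2af2, Rbm8a and Rbm14. The fold changes had the same sign in 75 of 81 members (92.6%), and in 83.7% of all transcripts tested in both. Across these 81 genes, which share their libraries and are not replicates, Spearman's rho was 0.817 and Pearson's r 0.652, and across all 8056 transcripts they were 0.824 and 0.828.

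**Figure D3:**
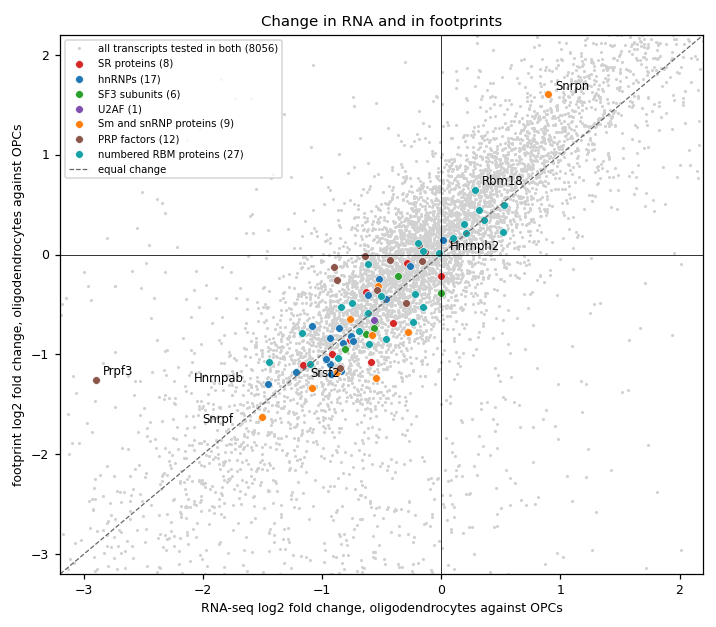
Log2 fold change in footprints against log2 fold change in RNA-seq, oligodendrocytes against OPCs, with members coloured by family over all 8056 transcripts in grey. Grey points beyond the axes are left out. Most members lie in the lower left and along the diagonal, with Snrpn in the upper right and Prpf3 far to the left. Rbm17 is not drawn.

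Ribosome density (RD), footprint FPKM over RNA-seq FPKM, measures footprints per unit of mRNA. No change in RD was called among the 81 members tested (limma, cell type by library kind), against 0.0124% of all 8056 transcripts. At an unadjusted p under 0.05 there were 3 members, against 4.8% of all transcripts. The median log2 change in RD of the members was 0.03, against 0.10 for all, and 73 of 81 members lay within 0.5 of 0. The median SE was 0.28 on the log2 scale, and since even the largest changes among the members did not pass, the lack of calls does not show that RD was the same.

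The largest changes in RD, none of which passed the adjusted threshold, were as follows. Prpf3 had an RD of 2.91 and 2.61 in OPCs and 16.0 and 5.67 in oligodendrocytes, with a log2 change of 1.64 (SE 0.64, adjusted p = 0.875), on the low RNA-seq values given above. Prpf38a had a log2 change of 0.78 (SE 0.30, adjusted p = 0.875) and Snrpn of 0.71 (SE 0.32, adjusted p = 0.875), from an RD of 1.26 and 0.799 to 1.63 and 1.65. Prpf39 had a log2 change of 0.63 and Prpf4 of 0.62. On the other side, Snrpg had an RD of 6.10 and 4.62 in OPCs and 3.85 and 2.82 in oligodendrocytes, with a log2 change of -0.69 (SE 0.24, adjusted p = 0.875). For Snrpg, 100% of the 30-base words of the CDS and 34.4% of those of the transcript occur elsewhere in the genome, which limits this value. Snrpd2 had -0.50, Srsf4 -0.49 and Rbm38 -0.44. Rbm17, with footprints listed at 0 in 1 library, was tested but is given no RD fold.

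Many members had a high RD in both cell types. RD compares coding sequence with whole transcript, so a level also depends on how reads fall over UTRs, and levels are given per length. The median RD of the members was 2.57 and 2.59 in the OPC cultures and 2.78 and 2.38 in the oligodendrocyte cultures, against 1.72, 1.77, 2.02 and 1.95 for all transcripts tested in both kinds. In all 4 cultures 46 of 81 members (56.8%) lay above the median of all transcripts, as did 29.8% of all transcripts. In all 4 cultures 11 members (13.6%, against 3.65% of all) lay above the 90th percentile, namely Sf3a2, Sf3b4, Sf3b5, Snrpa, Snrpf, Hnrnpa2b1, Hnrnpd, Hnrnpm, Rbm3, Rbm8a and Rbm14. None (0) lay below the 10th percentile in all 4. Of the 30-base words of the CDS of Rbm3, Sf3b4, Snrpf, Snrpa and Rbm8a, 93.1%, 83.7%, 83.0%, 62.1% and 51.3% occur elsewhere in the genome. Of their transcript words, 20.3%, 65.2%, 29.3%, 48.5% and 20.5% do, so shared reads may bear unequally on footprints and RNA-seq. The other members above the 90th percentile had at most 21.3% of such CDS words. The part of shared reads in RD was not tested.

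By family, the median RD in OPCs was highest for the Sm and snRNP proteins (5.36, and 4.32 in oligodendrocytes) and the SF3 subunits (4.85 and 4.24). It was 3.48 and 3.54 for the hnRNPs, 2.43 and 2.15 for the SR proteins, 2.11 and 2.55 for the PRP factors, and 1.53 and 1.61 for the RBM proteins, which lay below the median of all transcripts. The members ranged widely. Sf3b5 had an RD of 20.8 and 16.4 in OPCs and 17.3 and 15.8 in oligodendrocytes, and Hnrnpd had 19.5 and 14.6 against 14.0 and 14.0. Prpf39 was at the low end with 0.539 and 0.421 in OPCs and 0.733 and 0.746 in oligodendrocytes. The order of Sf3b5, Hnrnpd and Prpf39 was larger than the spread between cultures, except that Sf3b5 and Hnrnpd overlapped in OPCs.

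**Figure D4:**
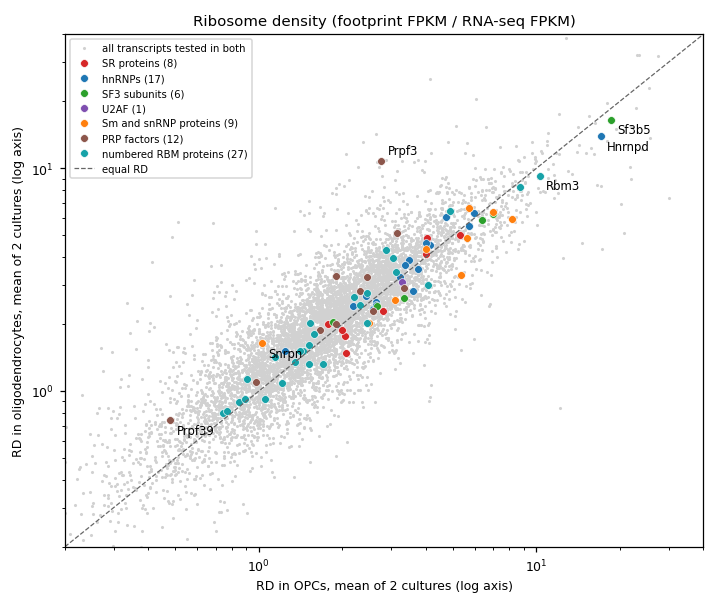
RD of each member in oligodendrocytes against OPCs (means of 2 cultures), on log axes from 0.2 to 40, by family, over all transcripts in grey. Of the 81 members tested, 73 had a log2 change in RD within 0.5 of 0. Prpf3 lies above the diagonal, at 2.76 in OPCs and 10.8 in oligodendrocytes. Members range from Prpf39 at the low end to Sf3b5 and Hnrnpd at the high end. Rbm17 is not drawn.

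The coding sequences of the members were compared with those of all listed transcripts. The median member had AAA at 43.75% of its lysine codons, against 36.8% for all, and UUU at 55.6% of its phenylalanine codons, against 42.9%. G or C stood at 52.4% of the third positions of codons, against 60.9%. Glycine made up 7.41% of codons against 6.27%, and 13.0% in the hnRNPs, many of which have glycine-rich tails. CDS length was alike, with medians of 1413 and 1374 bases.

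Many members have processed pseudogenes or close paralogs, so reads can be shared. More than 50% of the 30-base words of the CDS also occurred elsewhere in the genome for 19 of 85 members. Among them were Snrpg (100%), Hnrnpf (97.8%), Rbm3 (93.1%), Snrpd2 (88.6%), Hnrnpk (86.2%), Snrpf (83.0%), Snrpe (81.4%), Hnrnph2 (72.2%), Srsf5 (71.9%) and U2af2 (66.98%). The footprint values of these genes are less certain. The CDS of Hnrnpab, Srsf1 and Srsf2 had 0% of such words. The fall in footprints was called for 15 of the 49 tested members with at most 10% of such words (30.6%, against 10.8% of all transcripts) and for 15 of the 32 with more (46.9%), with median log2 fold changes of -0.52 and -0.70. The fall in RNA-seq was called for 19 of 48 (39.6%, against 20.2%) and for 13 of the 34 with more shared words of the transcript (38.2%). The part of shared reads in the falls was not tested. Rbm4 and Rbm4b, chosen after their values were seen, share 398 of 1054 words and an identical run of 425 bases, and cannot be told apart there. Exons of 11 members overlap another gene on the same strand and those of 25 overlap one on the opposite strand, such as Hnrnpab with Phykpl over 809 bases and Srsf2 with Mettl23 and Mfsd11 over 748. No strand option was set in counting, so reads from such partners cannot be told apart.

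Other splicing genes outside these families, from a list of 87 of which 68 were found, moved in a like way. In RNA-seq 31 of 68 were called lower (45.6%, against 20.2% of all) and 3 higher, and the median log2 fold change was -0.58. In footprints 26 of 67 were called lower (38.8%, against 10.8% of all) and 2 higher, with a median of -0.68. Ptbp1, the polypyrimidine tract-binding protein that represses many neural exons, fell from 87 and 81.6 to 35.2 and 35.7 FPKM in RNA-seq (log2 fold change -1.25, SE 0.15, adjusted p = 0.00339) and from 385 and 365 to 128 and 124 in footprints (log2 fold change -1.57, SE 0.10, adjusted p = 0.00524). Its neural paralog Ptbp2 was at 30 and 48.3 against 25 and 26.3 in RNA-seq, with an adjusted p of 0.145.

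Tra2b, an SR-like activator of exons, fell in RNA-seq from 41.8 and 54.1 to 24.3 and 23.5 FPKM (log2 fold change -0.99, SE 0.19, adjusted p = 0.0141) and in footprints from 251 and 231 to 133 and 109.8 (log2 fold change -0.99, SE 0.15, adjusted p = 0.0188). Rbfox2, which binds UGCAUG near regulated exons, fell in RNA-seq from 14.8 and 16.5 to 9.2 and 8.02 (log2 fold change -0.85, SE 0.23, adjusted p = 0.0347). The genes that rose were Mbnl2, with a log2 fold change of 1.10 in RNA-seq and a call in footprints as well, Syf2 (0.84) and Clk4 (0.81) in RNA-seq, and Ptbp3 in footprints. Mbnl2 is a muscleblind protein that regulates splicing in maturing tissues, and Clk4 is a kinase that phosphorylates SR proteins.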

How the data were processed

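The 8 libraries hold ribosome footprints or total RNA of 2 OPC cultures and 2 oligodendrocyte cultures. The authors deposited FPKM. They clipped adapters with fastx_clipper, mapped reads to GRCm38 with HISAT2 2.1.0 and tabulated FPKM with StringTie 1.3.5 and ballgown on canonical coding transcripts of Gencode vM9, for the whole transcript (RNA-seq) or the CDS (footprints). StringTie was given no strand option. All 8 columns were used and 0 were left out. Counts were not analysed here, so no counting intervals are given, and the spacing of low FPKM values was used to estimate depth.

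From the deposited values, log2(FPKM + 0.1) was fitted with limma 3.58.1 (R 4.3.3) (eBayes with a trend of variance on abundance, two-sided, Benjamini-Hochberg over all transcripts tested, threshold 0.05). Transcripts entered a fit where their mean reached 1 FPKM across its 4 libraries. Fold changes are oligodendrocytes against OPCs on this scale, which understates those of low transcripts. RD change was tested over all 8 libraries as a term of cell type by library kind. P-values measure the spread between these cultures, and with 2 against 2 the smallest two-sided exact permutation p is 0.333. Cultures with the same number are pairs, since the labels share the numbers and the study differentiated the oligodendrocytes from the OPC replicates. The correlation of their deviations was 0.108 in RNA-seq and 0.0860 in footprints. The fit as reported has no block for pairs.

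Of the listed markers, 1 for oligodendrocytes is not reported here. The members and all lists were chosen with earlier results of these data known. Members were named with values where they were among the 8 largest changes past the threshold in each direction with the same sign in both pairs, the 5 largest RD changes each way, the 10 most abundant in either kind of library, listed at 0 in any library, or on a list of well-known splicing proteins. Coordinates and sequences come from Gencode vM21 (GRCm38), in which all 10987 transcripts were found. Words of 30 bases were looked up on both strands of the genome, outside the member's own gene and the 5000 bases around it. No gene annotation was used for this, so a copy need not be transcribed. Alternatives were a pseudocount of 1, no minimum, a minimum of 5, median-ratio scaling, no variance trend, pairs as a block, RD per culture, and leaving out each culture. The fits were tested on simulated data, in which most changes of 1 on the log2 scale were missed and some calls were false.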

Additional observations from a re-analysis of the deposited data

How the results depend on the processing

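In RNA-seq 33 members passed the threshold, and the number was 35 with a pseudocount of 1, 30 with no minimum, 36 with a minimum of 5 FPKM, 19 with median-ratio scaling (17 lower, 20.7% against 15.2% of all transcripts, and 2 higher, the other being Rbm4b), 12 with no variance trend, and between 1 and 13 without 1 culture (3 without OPC culture 1, 1 without OPC culture 2, 13 without oligodendrocyte culture 1 and 7 without oligodendrocyte culture 2). In footprints 31 passed, with 34, 31, 35, 27 and 1 under the same settings in turn, and between 0 and 28 without 1 culture (0 without either OPC culture, 28 without oligodendrocyte culture 1 and 2 without oligodendrocyte culture 2). With 1 culture left out, the lone culture is assumed to vary like the others. With the replicate block for pairs, 39 members passed in RNA-seq, 36 in footprints and 0 in RD, and beside the calls given with their paired values it changed no other call. The median log2 fold change of the members in RNA-seq was -0.42 under median-ratio scaling, which moved the median of all transcripts from -0.23 to -0.05, and between -0.61 and -0.55 without 1 culture. In footprints it was between -0.63 and -0.49 without 1 culture. The median change in RD, 0.03, was -0.13 under median-ratio scaling and between -0.063 and 0.087 without 1 culture (-0.040 without OPC culture 2 and -0.063 without oligodendrocyte culture 1). The number of RD calls was 1 (Rbm17) without oligodendrocyte culture 1 and 0 under the other settings, RD per culture included. None (0) of the members called changed sign under any setting. Of 747 selected values of single members under the alternatives, 530 kept their side of the threshold, 193 lost it and 24 gained it. None (0) of these selected values changed direction. These values leave out Prpf8 and U2af1l4, the footprints of Prpf38a, Prpf39 and Rbm17, and the RD of Rbm17. The statement on direction does not cover them and depends on this selection. The footprints of Prpf8, Prpf38a and Prpf39, at log2 fold changes of 0.02, -0.12 and -0.01, do change direction when 1 culture is left out. The causes were not tested. Shallow libraries limit low members most, which may hold for Prpf3 in oligodendrocytes, but the depths are uncertain.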
